A study of Homo sapiens with 12 samples.

Results

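EW8 and TC71, a pair of Ewing sarcoma cell lines, were compared at 0 h, while the cells were still kept in doxycycline. The comparison rests on 6 of the 12 RNA-seq libraries of the series, 3 of EW8-RRM1-KO and 3 of TC71-RRM1-KO, chosen by the cell line and time in their labels. In both lines, per the study's methods, the endogenous RRM1 gene, which encodes the large subunit of ribonucleotide reductase, had been knocked out with CRISPR/Cas9 and replaced by a doxycycline-inducible, codon-optimized RRM1 transgene delivered by lentivirus. Doxycycline was present at 0 h in all 6 libraries, and the transduced cells had been selected in hygromycin. The knockout lines were single-cell cloned, so differences between the cell lines and differences between clones cannot be told apart. The other 6 libraries, 3 of each line taken 48 hours after doxycycline was removed, gave the same comparison at a later time. They entered the filter on low counts and the estimate of the spread for both times, but not the 0 h contrast itself. Fitted on the 6 libraries at 0 h alone, 646 genes were called higher in EW8 and 1710 higher in TC71. The labels do not say that the replicates were separate cultures, so the p-values measure the spread between these libraries, which may be technical.

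Ewing sarcoma is a tumor of bone and soft tissue that is driven in most cases by a fusion of EWSR1 with FLI1, a transcription factor that binds GGAA repeats and activates genes such as NR0B1, NKX2-2 and CCND1. Its cells show no settled lineage, and mesenchymal, neural crest and neuronal programs have all been described in them. HOX genes lie in clusters and are expressed in an order that records position along the body axis and the limb, and mesenchymal cells keep this pattern in culture. Receptors and their ligands set which outside signals a line can answer.

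The 0 h libraries held between 18684017 and 35698991 counts in EW8 and between 20053075 and 26468122 counts in TC71. Of 20771 genes in the table, 16515 passed the filter on low counts and were tested with edgeR's quasi-likelihood test. A gene was called where the Benjamini-Hochberg adjusted p was below 0.05 and the fold above 2. Levels are given as CPM, the counts of a gene relative to the library total after TMM scaling, and differences as log2 fold changes of EW8 over TC71 with the SE of the fit. Means are given ± SD (n = 3). The first principal component of the 12 libraries held 59.3% of the variance and separated the lines, and the next held 28.5% and separated the times. RRM1 itself measured 9.37, 9.51 and 9.67 CPM in the EW8 libraries and 15.7, 15.5 and 17.3 CPM in the TC71 libraries. Its log2 fold change was -0.76 ± 0.082 (adjusted p = 4.78e-10), a fold of 1.7. These counts are of the annotated gene and need not include the codon-optimized transgene, so they check neither the knockout nor the rescue.

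At 0 h, 2750 of the 16515 genes tested were called, or 16.7%. The calls were uneven, with 787 genes higher in EW8 (4.77%) and 1963 higher in TC71 (11.9%). The fold was above 4 in 267 of the former and 774 of the latter. The 0 h libraries of the lines did not overlap in 772 and 1903, which the call itself makes likely and which adds no support to it. With no requirement on the fold, the counts were 5415 higher in EW8 and 5439 higher in TC71, and over all genes tested the log2 fold change had a median of -0.0094. Scaling by library totals alone moved that median to -0.143 and left 642 genes higher in EW8 and 2304 higher in TC71.

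Genes called in either direction were for the most part weakly expressed. Their mean over the 6 libraries had a median of 2 CPM for those higher in EW8 and 1.49 CPM for those higher in TC71. Over all genes tested it was 16 CPM. When genes were split into 5 equal groups by mean expression over the 6 libraries, in the lowest group (0 to 1.05 CPM), 25.2% of genes were higher in TC71 and 9.05% higher in EW8. In the highest group (from 75 CPM up), the shares were 1.03% and 1.6%. Of the long noncoding RNAs, 421 of 1711 were higher in TC71 (24.6%) and 57 higher in EW8 (3.33%), where the protein-coding genes had 1345 of 12850 (10.5%) and 651 (5.07%). The share toward TC71 lay near the 25.2% of the lowest expression group and the 21.2% of the next. The share toward EW8 lay below the 9.05% and 7.36% of those groups. Whether long noncoding RNAs differed from protein-coding genes of like level was not tested. The transcripts of the called genes also differed in GC content, with a median of 52.9% for those higher in TC71, 45.3% for those higher in EW8 and 47.7% for all genes tested. With an offset for GC content in each library, an alternative chosen after seeing the data, 884 genes were higher in EW8 and 1756 higher in TC71. Of the long noncoding RNAs, 389 were then called higher in TC71 (22.7%). Between 566 and 1086 genes of the table had no count in an EW8 library, against 368 to 603 in a TC71 library. What part depth, GC content or RNA quality had in the excess of weak genes in TC71 was not tested beyond these values.

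Both lines expressed the genes that define Ewing sarcoma. The 36 listed markers summed to between 7720 and 7950 CPM in the EW8 libraries and between 6830 and 6920 CPM in the TC71 libraries, and only the neuropeptide gene NPY had no count in any TC71 library at 0 h. Of 35 markers tested, 3 were higher in EW8 and 0 higher in TC71 (8.57% and 0%, against 4.77% and 11.9% of all genes tested), with a median log2 fold change of 0.114. CD99, the surface antigen used in diagnosis, measured 334 ± 9.33 CPM in EW8 and 315 ± 5.28 CPM in TC71. FLI1, whose 3' part the fusion carries, measured 115 ± 4.2 and 104 ± 0.836 CPM, and the nuclear receptor gene NR0B1 measured 78.9 ± 3.92 and 81.3 ± 1.91 CPM. The fold was below 2 for these 3 genes, and for NKX2-2, STEAP1, CCND1, KIT and LIPI. The direction of the difference in CD99 turned when libraries were scaled by totals alone, and that in NR0B1 turned with the GC offset. The markers called higher in EW8 were PAPPA, a protease that frees insulin-like growth factors from their binding proteins (34.2 ± 4.31 against 13.8 ± 1.22 CPM), PHLDA1 (4.54 ± 0.34 against 1.86 ± 0.354 CPM) and the Hedgehog pathway factor GLI1 (14.2 ± 2.27 against 6.66 ± 0.782 CPM). The call of GLI1 ended without the EW8 library of replicate 2, where its log2 fold change was 0.97.

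Epithelial markers summed to between 27.9 and 28.5 CPM in EW8 and between 84.2 and 87.4 CPM in TC71, and of 8 tested 1 was higher in EW8 and 5 higher in TC71 (12.5% and 62.5%, against 4.77% and 11.9% of all genes tested). Most of that sum in TC71 was KRT18, a keratin of simple epithelia, at 7.53 ± 1.11 CPM in EW8 and 65.5 ± 0.858 CPM in TC71, with its partner KRT8 at 0.774 ± 0.228 and 5.62 ± 0.17 CPM. The exons of these keratin genes overlap on opposite strands. Haematopoietic markers summed to between 3.72 and 5.06 CPM in EW8 and between 10.8 and 11.9 CPM in TC71, most of it CD79A, a part of the B-cell receptor, at 3.47 ± 0.7 and 9.61 ± 0.883 CPM. Endothelial markers summed to between 20.8 and 23.2 CPM in EW8 and between 29.6 and 35.2 CPM in TC71, and EMCN, a sialoprotein of vessels, made up 0.64 ± 0.161 and 14.9 ± 0.748 CPM of that. Of 4 endothelial markers tested, 1 was higher in each line (25% each), with a median log2 fold change of 0.363 toward EW8, so the higher sum in TC71 rested on EMCN. EPCAM, the defining epithelial adhesion protein, was at 0.143 ± 0.0357 and 0.936 ± 0.359 CPM. Of the listed epithelial, endothelial and haematopoietic markers, 9, 7 and 8 had no row in the table. Whether a few cells of another kind contributed to any gene below was not tested.

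Genes that were silent in either line were taken as those with at most 3 counts in every 0 h library of that line and at least 1 CPM in every 0 h library of the other. By this rule 63 genes were silent in EW8 (0.381% of genes tested) and 15 were silent in TC71 (0.0908%). No count at all was found in 13 of the 63 and in 3 of the 15. The 63 genes silent in EW8 comprised 42 protein-coding genes and 15 long noncoding RNAs, and 9 of them were zinc finger genes with a ZNF symbol. The 16515 genes tested held 12850 protein-coding genes, 1711 long noncoding RNAs and 462 genes with a ZNF symbol. The genes silent in TC71 comprised 14 protein-coding genes and 1 long noncoding RNA. At 48 h, 35 of the 63 and 10 of the 15 still had no more than 3 counts in each library of the silent line.

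The upstream sequences of 4 of these genes are shown because the genes are protein-coding, have known functions and went from no or nearly no count to a clear level between the lines. Each is the run of 250 bases before the RefSeq start of the gene on GRCh38.p14, written 5' to 3' on the strand of the gene, with CG dinucleotides in capitals. PDK2 lies on the + strand with its window at chr17:50094487-50094736, CPXM1 on the - strand at chr20:2800628-2800877, CDK6 on the - strand at chr7:92836574-92836823 and RET on the + strand at chr10:43076819-43077068.
PDK2, silent in EW8: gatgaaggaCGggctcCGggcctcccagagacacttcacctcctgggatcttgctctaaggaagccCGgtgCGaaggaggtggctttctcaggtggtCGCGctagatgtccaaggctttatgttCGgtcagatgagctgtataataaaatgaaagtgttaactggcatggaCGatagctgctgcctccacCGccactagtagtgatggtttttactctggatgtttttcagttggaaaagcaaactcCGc
CPXM1, silent in EW8: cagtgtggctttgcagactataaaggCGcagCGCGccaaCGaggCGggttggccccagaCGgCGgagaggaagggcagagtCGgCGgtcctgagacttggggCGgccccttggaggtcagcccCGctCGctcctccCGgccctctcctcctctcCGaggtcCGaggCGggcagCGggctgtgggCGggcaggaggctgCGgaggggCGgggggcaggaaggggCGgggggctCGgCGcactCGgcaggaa
CDK6, silent in TC71: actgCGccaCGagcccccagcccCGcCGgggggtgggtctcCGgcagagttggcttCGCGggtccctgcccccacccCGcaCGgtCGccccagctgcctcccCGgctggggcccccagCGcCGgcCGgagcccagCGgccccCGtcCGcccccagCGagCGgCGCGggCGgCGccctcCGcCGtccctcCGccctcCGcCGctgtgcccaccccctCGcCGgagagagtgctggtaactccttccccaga
RET, silent in TC71: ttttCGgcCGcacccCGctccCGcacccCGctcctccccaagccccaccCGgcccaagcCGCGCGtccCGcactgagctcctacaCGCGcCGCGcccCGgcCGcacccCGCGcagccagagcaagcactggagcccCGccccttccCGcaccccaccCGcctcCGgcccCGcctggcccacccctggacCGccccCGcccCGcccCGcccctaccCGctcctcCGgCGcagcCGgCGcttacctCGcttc
The windows held 10 CG dinucleotides in PDK2, 24 in CPXM1, 30 in CDK6 and 33 in RET. For the counts below, the RefSeq promoter of 300 bases nearest the annotated start on the same chromosome was taken, at any distance. Only the sequences shown had to start within 100 bases of the annotated start. A promoter was matched for 40 of 59 annotated genes silent in EW8 and 9 of 15 silent in TC71. Of these, 22 (55%) and 6 (66.7%) were CpG-rich, with GC content above 50% and an observed to expected CG ratio above 0.6, against 78.7% of the 10914 promoters matched among all genes tested. Among all called genes the CpG-rich share was 67% of 522 matched promoters for those higher in EW8 and 63% of 1190 for those higher in TC71. The run GGAAGGAA, searched on both strands because it repeats the GGAA core that the fusion binds, was present in 2 of the 40 (5%), in 0 of the 9 and in 3.44% of all matched promoters. Such a match is only a run of letters and was not read as a binding site.

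The gene with the highest level among those silent in TC71 was CALD1 (chr7:134744252-134970729 in GENCODE release 44 on hg38), which encodes the actin-binding protein caldesmon. It measured 29.3, 26.9 and 29.5 CPM in the EW8 libraries and 1, 1 and 0 counts in the TC71 libraries, a ratio of 1030 times (95% counting interval 285 to 8500). These intervals cover counting error only. NOS1 (chr12:117208142-117452170), the neuronal nitric oxide synthase, measured 10.7, 13.5 and 12.2 CPM in EW8 and 1, 0 and 1 counts in TC71. SLC28A3, a transporter that carries nucleosides and their analogs into cells, had 5.12, 4.98 and 3.6 CPM in EW8 and no count in any TC71 library, and was at least 35.8-fold higher in EW8 when set against 3 counts per library. LUM, the matrix proteoglycan lumican, measured 5.52, 4.35 and 4.24 CPM in EW8 and 2, 1 and 0 counts in TC71.

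A kinase and a cyclin of the G1 phase of the cell cycle were in this group. CDK6 (chr7:92604921-92836573), which drives entry into S phase with D-type cyclins, measured 8.02, 7.22 and 6.71 CPM in EW8 and 0 counts in every TC71 library, and was at least 57.3-fold higher in EW8. Its exons overlap CDK6-AS1 on the opposite strand. CCND2, which encodes cyclin D2, measured 1.23, 1.38 and 1.5 CPM in EW8 and 1, 0 and 2 counts in TC71, a ratio of 32.9 times (95% counting interval 10.9 to 162). CDK4, the close relative of CDK6, was expressed in both lines, at 212 ± 7.28 CPM in EW8 and 165 ± 6.65 CPM in TC71, and CCND1, the D-type cyclin typical of Ewing sarcoma, at 1390 ± 20.1 and 1097 ± 12.7 CPM. Neither of these differed by more than 2-fold.

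RET (chr10:43077064-43130351), the receptor tyrosine kinase for ligands of the GDNF family, measured 5.69, 6.01 and 5.31 CPM in EW8 and 2, 1 and 1 counts in TC71, a ratio of 99.9 times (95% counting interval 38.7 to 368). EYA4, a transcriptional cofactor with phosphatase activity, measured 2.54, 1.66 and 2.04 CPM in EW8 and no count in TC71, and was at least 16.3-fold higher in EW8. Of the rest, MGLL encodes monoacylglycerol lipase, which degrades an endocannabinoid, and ADGRL3 a latrophilin adhesion receptor, and their EW8 means were 2.22 ± 0.197 and 2.01 ± 0.102 CPM. OGFRL1, ZNF502 and the noncoding DIRC3 had EW8 means of 4.99 ± 0.398, 2.21 ± 0.247 and 2.15 ± 0.409 CPM, and 2 further genes of the 15 are not named.

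Among the genes silent in EW8, the highest levels in TC71 were those of a long noncoding RNA, LINC00689 (chr7:159006522-159030195), and PDK2 (chr17:50094737-50112152), whose exons overlap SAMD14 on the opposite strand. LINC00689 measured 19.2, 19.2 and 18.7 CPM in TC71 and 1, 0 and 2 counts in EW8, a ratio of 464 times (95% counting interval 158 to 2250). It overlaps VIPR2, the gene of a receptor for vasoactive intestinal peptide, on the opposite strand, and VIPR2 had 1.04, 0.981 and 0.91 CPM in TC71 and no count in EW8. As the strand setting of the counting is not given in the sources used here, reads of this pair may have been shared. PDK2, a kinase that shuts off pyruvate dehydrogenase and thereby entry of pyruvate into the citric acid cycle, measured 14.7, 16.9 and 15.6 CPM in TC71 and 0 counts in every EW8 library, and was at least 119-fold higher in TC71.

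Other mitochondrial proteins were DNAJC15, a J-domain protein of the inner membrane, at 7.11, 7.6 and 6.91 CPM in TC71 and 0, 0 and 2 counts in EW8, and NLRX1, a mitochondrial member of the NOD-like receptor family, at 4.28, 4.22 and 4.01 CPM in TC71 and no count in EW8. STXBP6, which binds SNARE proteins of exocytosis, measured 6.35 ± 0.34 CPM in TC71 and 2, 2 and 2 counts in EW8. Secreted or surface proteins silent in EW8 were the protease inhibitor A2M (9.04 ± 0.8 CPM in TC71), the carboxypeptidase-like CPXM1 (7.55 ± 0.258 CPM), VSTM4 (6.7 ± 0.505 CPM), the thromboxane receptor TBXA2R (6.36 ± 0.136 CPM), the estrogen-binding receptor GPER1 (2.37 ± 0.178 CPM) and ICAM1, a surface ligand of leukocyte integrins (1.58 ± 0.365 CPM). The neuronal kinase AATK measured 2.07 ± 0.122 CPM in TC71 and 1, 1 and 1 counts in EW8. The antiviral cytidine deaminase APOBEC3G measured 3.28, 3.83 and 3.14 CPM in TC71 and 1, 2 and 0 counts in EW8. The zinc finger gene ZNF750, a factor of epidermal differentiation, measured 2.46 ± 0.132 CPM in TC71 and no count in EW8. ZNF726 (chr19:23914876-23945159) was at 5.68 ± 0.716 CPM in TC71. It was the only named gene of this group with a silent neighbour whose start lay within 500 kb, a noncoding gene inside its own bounds. The 3 libraries of EW8 were below the 3 of TC71 for every gene of this group and above them for every gene silent in TC71, as the rule requires.

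**Figure D1:**
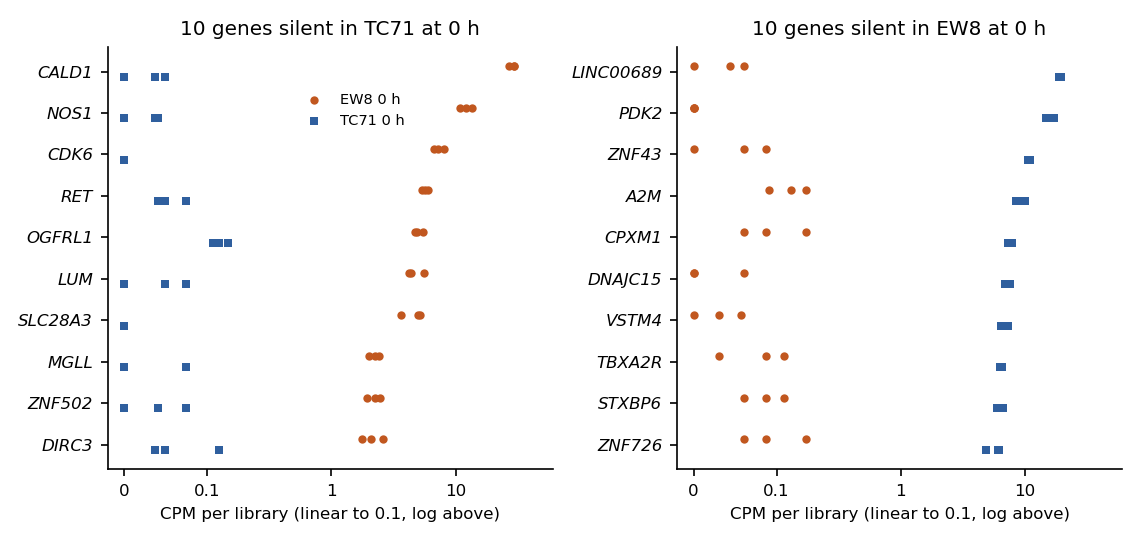
CPM of each 0 h library for the 10 genes silent in TC71 and the 10 silent in EW8 that had the highest level in the other line, on an axis that is linear up to 0.1 CPM and logarithmic above. Each point is 1 library, coloured by line, and the lines overlap for none of the 20 genes: CALD1 is near 29 CPM in EW8 and LINC00689 near 19 CPM in TC71.

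Genes that were measured in both lines but differed most were selected as the 10 called in each direction with the largest log2 fold change. They needed libraries that did not overlap between the lines and at least 20 counts on average in the lower line. In EW8 the largest was RIPOR3, at 32.1, 35 and 33.2 CPM against 1.42, 2.06 and 2.23 CPM in TC71, a log2 fold change of 4.15 ± 0.11 (adjusted p = 5.73e-26). LCP1, the actin-bundling protein L-plastin best known from blood cells, reached 258, 246 and 261 CPM in EW8 against 25.9, 25.2 and 23.5 CPM in TC71, a log2 fold change of 3.36 ± 0.055 (adjusted p = 7.56e-32). Also higher in EW8 were PCSK6, a proprotein convertase that activates TGF-beta family ligands (fold 10.7), SCML4, a Polycomb-related gene (10.5), the secreted phospholipase PLA2G3 (10.1), TACR3, the receptor of neurokinin B (8.32), FHAD1 (10.8), SUSD5 (9.54) and MCTP1 (9.05). The pseudogene CYP4F29P (7.38 ± 0.324 against 0.917 ± 0.243 CPM) completed the 10 and is uncertain, since it may share reads with its relatives.

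The largest differences toward TC71 were wider. MXRA8, a membrane protein known as an entry receptor of arthritogenic alphaviruses, measured 67.1, 73.8 and 68.5 CPM in TC71 and 0.876, 1.15 and 0.64 CPM in EW8, a log2 fold change of -6.37 ± 0.12 (adjusted p = 3.65e-27). RARRES2, which encodes the chemoattractant chemerin, had a log2 fold change of -5.97 ± 0.11 and APOE, the lipid carrier, of -5.71 ± 0.15, with means of 1.04 ± 0.047 and 1.35 ± 0.0633 CPM in EW8 and 66.5 ± 0.464 and 70.4 ± 2.23 CPM in TC71. The kainate receptor subunit GRIK3 measured 51.1 ± 2.53 CPM in TC71 and 1.17 ± 0.191 CPM in EW8. COL9A3, a collagen of cartilage, was 27.1-fold higher in TC71, the basement membrane proteoglycan HSPG2 (perlecan) 21.7-fold, and PCOLCE, which speeds procollagen processing, 19.4-fold. MAOA, which oxidizes amine neurotransmitters, was 26.1-fold higher, and FAM171A1 and TMC8 24.9-fold and 21.1-fold. The libraries of the lines did not overlap for any of these 20 genes, as the rule requires.

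The direction of the HOX genes differed between clusters. Of 28 tested, 5 were higher in EW8 and 6 higher in TC71 (17.9% and 21.4%, against 4.77% and 11.9% of all genes tested), with a median log2 fold change of 0.0095. All of those higher in EW8 lay in HOXA or HOXC and were late members, which mark posterior and distal positions, and all of those higher in TC71 lay in HOXB. In HOXC (chr12:53938831-54056030), HOXC11 measured 16.6, 19.1 and 18.4 CPM in EW8 and 4.13, 3.73 and 3.68 CPM in TC71, a log2 fold change of 2.22 ± 0.10 (adjusted p = 1.08e-19), with HOXC12 at 1.61 ± 0.20 and HOXC13 at 1.31 ± 0.094. The earlier genes HOXC10, HOXC9, HOXC8 and HOXC6, at 0.50 ± 0.092, -0.43 ± 0.16, 0.54 ± 0.089 and -0.03 ± 0.09, did not reach a fold of 2. In HOXA, both genes tested were higher in EW8, HOXA10 at 7.17 ± 0.936 against 1.63 ± 0.139 CPM and HOXA11 at 2.51 ± 0.263 against 0.448 ± 0.102 CPM.

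HOXB (chr17:48540894-48728750) ran the other way. HOXB6 measured 7.9, 8.04 and 7.9 CPM in TC71 and 1.62, 1.66 and 1.86 CPM in EW8, a log2 fold change of -2.19 ± 0.17 (adjusted p = 1.77e-12). HOXB3, HOXB4, HOXB5, HOXB8 and HOXB9 were higher in TC71, with log2 fold changes of -1.75 ± 0.13, -1.85 ± 0.14, -1.84 ± 0.19, -2.04 ± 0.18 and -1.52 ± 0.075. The other members did not follow. HOXB2 measured 3.75 ± 0.134 CPM in EW8 and 6.92 ± 0.637 CPM in TC71 and fell short of a fold of 2, except under scaling by library totals alone. HOXB7 measured 28.5 ± 1.03 CPM in EW8 and 32.9 ± 0.901 CPM in TC71, and HOXB13, at the posterior end of the cluster, was at 57.6 ± 2.84 CPM in EW8 and 35.3 ± 2.61 CPM in TC71. Exons of HOXB3, HOXB4 and HOXB6 overlap on the same strand, so part of their reads may have been shared, and the antisense genes HOXB-AS3, HOXA10-AS and HOXC13-AS overlap members of these clusters. HOXD (chr2:176092721-176190907), whose late genes are typical of Ewing sarcoma, held no call among 9 genes tested, and its summed level was 252 ± 2.12 CPM in EW8 and 265 ± 3.92 CPM in TC71. HOXD13 alone measured 119 ± 2.66 and 143 ± 3.29 CPM, and HOXD10 49.1 ± 3.38 and 47.2 ± 1.07 CPM.

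**Figure D2:**
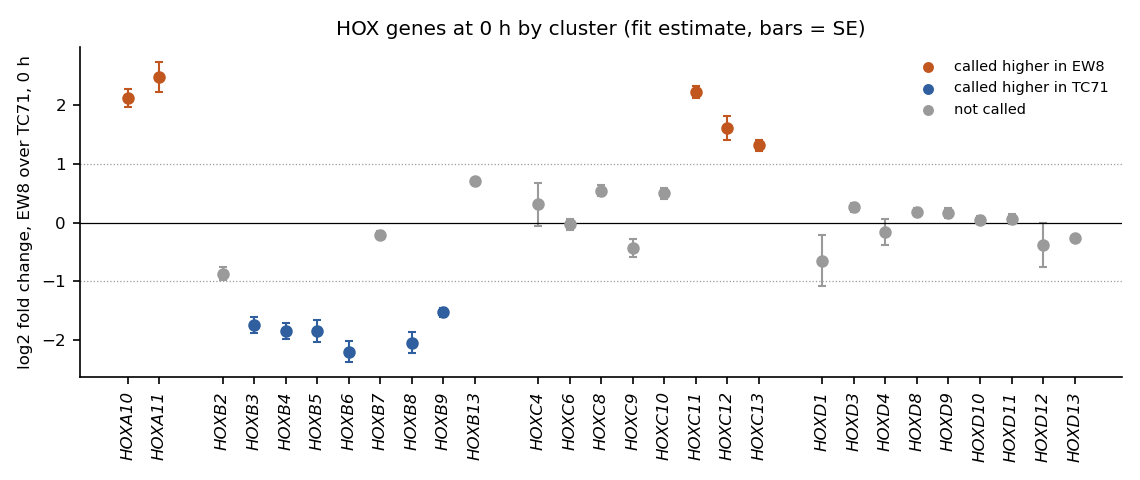
Log2 fold change of EW8 over TC71 at 0 h for the 28 HOX genes tested, by cluster and gene number, with bars of 1 SE. Points above 0 are higher in EW8: HOXA10, HOXA11 and HOXC11 to HOXC13 lie above 1, HOXB3 to HOXB6, HOXB8 and HOXB9 lie below -1, and the HOXD genes lie between these limits.

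Other factors that lay out the limb, axis and head gave 10 genes higher in EW8 and 4 higher in TC71 among 52 tested (19.2% and 7.69%, against 4.77% and 11.9% of all genes tested), a median log2 fold change of 0.275. TBX3, a T-box repressor of limb and heart development, measured 22.3, 18.8 and 21.3 CPM in EW8 and 4.13, 3.68 and 4.22 CPM in TC71, a log2 fold change of 2.37 ± 0.094 (adjusted p = 2.01e-21). TBX4, the T-box factor of the hindlimb, measured 23.9 ± 0.173 against 8.86 ± 0.37 CPM, and CYP26B1, which degrades retinoic acid in the distal limb, 154 ± 3.21 against 44.3 ± 1.53 CPM. The somite factor MEOX1 was at 1.44 ± 0.313 CPM in EW8 and 0.0963 ± 0.0612 CPM in TC71. CDX2, a factor of the trunk and gut, had 0.822 ± 0.132 CPM in EW8 and 1, 0 and 2 counts in TC71. Smaller differences in the same direction were seen in ALX1 (fold 2.22), LHX9 (2.33) and UNCX (2.4). In TC71, MSX1, which marks undifferentiated limb and craniofacial mesenchyme, was higher, at 46.6, 47.1 and 44.4 CPM against 8.23, 6.82 and 8.6 CPM in EW8, a log2 fold change of -2.52 ± 0.08 (adjusted p = 8.95e-24). PBX4 and DLX3 were 6.12-fold and 2.5-fold higher in TC71, and LMX1A, a roof plate factor, had 0.796 ± 0.314 CPM in TC71 and 0, 1 and 1 counts in EW8.

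Lineage markers did not place either line on a single side. Of 17 neural crest markers tested, 1 was higher in EW8 and 5 higher in TC71 (5.88% and 29.4%, against 4.77% and 11.9% of all genes tested), with a median log2 fold change of -0.478. The neural crest factor TFAP2B measured 5.96, 5.5 and 6.59 CPM in EW8 and 0.633, 0.441 and 0.952 CPM in TC71, whereas SNAI1, the Snail repressor of epithelial genes, measured 0.832, 1.2 and 0.702 CPM in EW8 and 9.83, 11 and 11 CPM in TC71. Their log2 fold changes were 3.14 ± 0.18 and -3.60 ± 0.16 (adjusted p = 3.50e-17 and 9.15e-20). The glial marker S100B measured 0.243 ± 0.16 CPM in EW8 and 1.36 ± 0.382 CPM in TC71.

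Of 24 neuronal and neuroendocrine markers tested, 4 were higher in EW8 and 6 higher in TC71 (16.7% and 25%, against 4.77% and 11.9% of all genes tested), with a median of -0.244. SCG2 (secretogranin II), a protein of secretory granules, measured 74.6 ± 2.92 CPM in EW8 and 11.4 ± 0.674 CPM in TC71, and GAP43, a protein of growing axons, 34.4 ± 2.02 and 6.33 ± 0.576 CPM. Their log2 fold changes were 2.71 ± 0.067 and 2.44 ± 0.08 (adjusted p = 2.10e-26 and 1.08e-23). The neural adhesion molecule NCAM1 and the neural factor POU3F2 were 3.44-fold and 2.2-fold higher in EW8. TC71 had more of INA, a neuronal intermediate filament (fold 3.73), the synaptotagmin SYT4 (3.46) and the proneural factor NEUROG2 (5.16, at 1.08 ± 0.148 CPM in TC71).

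Of 22 mesenchymal and fibroblast markers tested, 5 were higher in EW8 and 7 higher in TC71 (22.7% and 31.8%, against 4.77% and 11.9% of all genes tested), with a median of -0.507. COL3A1, a fibrillar collagen, measured 128, 129 and 132 CPM in EW8 and 28.2, 30.8 and 28.7 CPM in TC71, a log2 fold change of 2.15 ± 0.049 (adjusted p = 3.54e-28). The limb mesenchyme factor PRRX1 was on the other side, at 2.54, 2.41 and 1.71 CPM in EW8 and 19.96, 18.9 and 18.2 CPM in TC71 (-3.15 ± 0.11, adjusted p = 1.30e-22), while its relative PRRX2 was 5.2-fold higher in EW8. The stromal surface proteins PDGFRB, ENG (endoglin) and THY1 were 4.72-fold, 4.59-fold and 3.02-fold higher in TC71, as were COL6A3 (9.27-fold), FAP (3.67-fold) and ACTA2 (2.48-fold). In the skeletal and muscle list, 2 of 9 tested were higher in each line (22.2% each, against 4.77% and 11.9% of all genes tested). RUNX2, the master factor of bone formation, was at 14.6 ± 1.49 CPM in EW8 and 4.48 ± 0.206 CPM in TC71. The slow muscle troponin TNNT1 was at 4.66 ± 0.771 and 49 ± 1.79 CPM.

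Of 39 receptor tyrosine kinases tested, 5 were higher in EW8 and 8 higher in TC71 (12.8% and 20.5%, against 4.77% and 11.9% of all genes tested). The median log2 fold change was 0.014. Besides RET, EW8 had more of the ephrin receptors EPHA7 and EPHA5, the collagen receptor DDR2 and MET, the receptor of hepatocyte growth factor. EPHA7 measured 31.1, 28.3 and 29.98 CPM in EW8 and 3.95, 4.76 and 3.64 CPM in TC71, a log2 fold change of 2.87 ± 0.094 (adjusted p = 1.03e-23), and DDR2 53.4 ± 1.61 against 12.9 ± 1.17 CPM. MET was 2.17-fold higher, and that call ended under scaling by library totals alone (log2 0.99). TC71 had more of INSR, the insulin receptor, at 34.3, 32.1 and 32.5 CPM against 5.52, 5.9 and 5.79 CPM in EW8, a log2 fold change of -2.52 ± 0.077 (adjusted p = 1.46e-24). PDGFRB and EPHA2 were 4.72-fold and 2.59-fold higher in TC71, and AXL had 0.87 ± 0.183 CPM there and 1, 1 and 1 counts in EW8. IGF1R, the insulin-like growth factor receptor on which Ewing sarcoma cells often depend, differed by a fold of 1.24, at 124 ± 4.46 CPM in EW8 and 100.3 ± 3.87 CPM in TC71.

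Ligands of these receptors gave 3 calls toward EW8 and 5 toward TC71 among 37 tested (8.11% and 13.5%), shares near those of all genes tested. FGF2 (basic fibroblast growth factor) measured 9.8 ± 0.304 CPM in EW8 and 3.39 ± 0.0402 CPM in TC71, and MST1, the ligand of the receptor RON, 3.26 ± 0.205 and 9.04 ± 0.0926 CPM. The intracellular FGF relatives FGF12 and FGF14 went opposite ways, with FGF12 3.19-fold higher in EW8 and FGF14 5.19-fold higher in TC71.

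**Figure D3:**
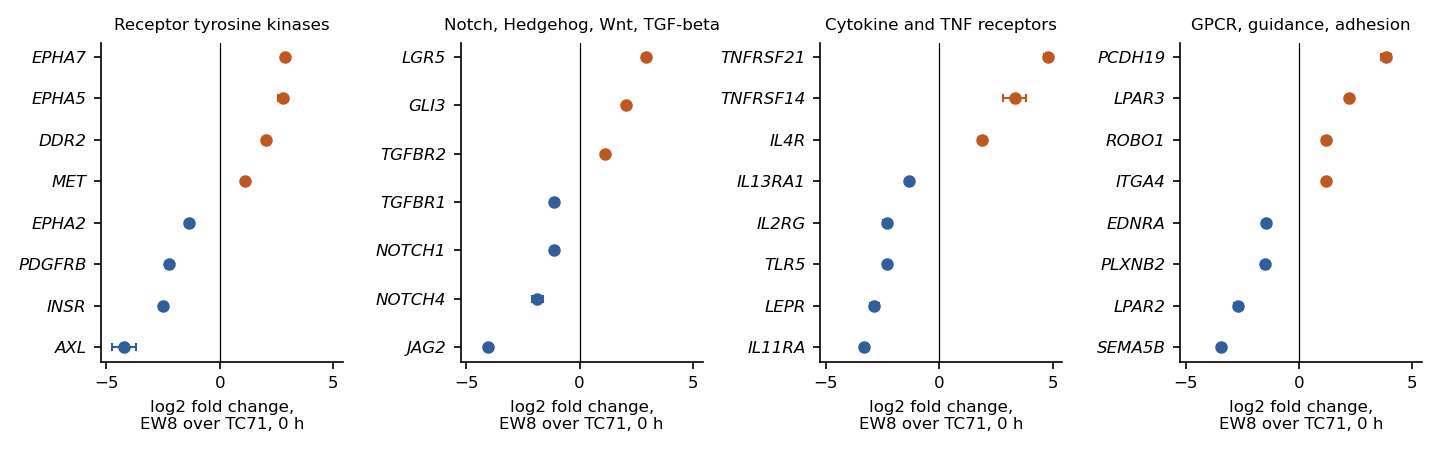
Log2 fold change of EW8 over TC71 at 0 h for selected called receptors, ligands and pathway genes, in panels by family, with bars of 1 SE. The estimates of AXL and TNFRSF14 rest on 1 to 4 counts in the lower line. Genes to the right of 0 are higher in EW8, such as EPHA7, LGR5 and TNFRSF21, and genes to the left higher in TC71, such as INSR, JAG2 and IL11RA.

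The receptors of TGF-beta were split, with TGFBR1 2.18-fold higher in TC71 and TGFBR2 2.21-fold higher in EW8, and ENG, a co-receptor, higher in TC71. Together, 1 of 13 TGF-beta and BMP receptors tested was higher in EW8 and 2 higher in TC71 (7.69% and 15.4%), near the shares of all genes. Of 28 Wnt receptors and inhibitors, 1 was higher in EW8 and 3 higher in TC71 (3.57% and 10.7%), again near 4.77% and 11.9%. LGR5, the R-spondin receptor of stem cells, measured 15.3, 12.1 and 12 CPM in EW8 and 1.64, 1.91 and 1.61 CPM in TC71, a log2 fold change of 2.94 ± 0.13 (adjusted p = 7.24e-20). NOTUM, a secreted enzyme that inactivates Wnt proteins, had 0.782, 0.932 and 0.538 CPM in TC71 and no count in EW8, and was at least 5.7-fold higher in TC71.

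Notch and Hedgehog components gave 2 calls toward EW8 and 4 toward TC71 among 18 tested (11.1% and 22.2%, against 4.77% and 11.9% of all genes tested), a median of -0.461. JAG2, a Notch ligand, measured 57.6, 62.7 and 55.7 CPM in TC71 and 3.81, 3.21 and 3.51 CPM in EW8, a log2 fold change of -4.05 ± 0.11 (adjusted p = 2.23e-21). The receptors NOTCH1 and NOTCH4 and the Notch target HEYL were 2.21-fold, 3.62-fold and 2.75-fold higher in TC71. The call of NOTCH1 ended with the GC offset, where its log2 fold change was -0.74. In the Hedgehog pathway GLI3, the main repressor form of the GLI factors, measured 21.2 ± 0.959 CPM in EW8 and 5.13 ± 0.626 CPM in TC71 (2.04 ± 0.092, adjusted p = 9.15e-20), while the receptor PTCH1 was at 47.7 ± 0.93 and 63.5 ± 2.31 CPM and not called.

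Of 42 cytokine, TNF and interferon receptors tested, 6 were higher in each line, or 14.3% each, against 4.77% and 11.9% of all genes tested. TNFRSF21, the death receptor DR6, measured 12.8, 13.5 and 14.2 CPM in EW8 and 0.484, 0.588 and 0.414 CPM in TC71, a log2 fold change of 4.77 ± 0.16 (adjusted p = 3.41e-23). IL4R and IL13RA1, which pair to form a receptor for interleukins 4 and 13, went opposite ways, with IL4R 3.71-fold higher in EW8 and IL13RA1 2.51-fold higher in TC71. IL11RA measured 15.6, 18 and 16.3 CPM in TC71 and 2.02, 1.83 and 1.25 CPM in EW8 (-3.34 ± 0.13, adjusted p = 1.36e-21). IL2RG, the common gamma chain of interleukin receptors, was 4.93-fold higher in TC71. TNFRSF14, the herpesvirus entry mediator, was at 0.927 ± 0.239 CPM in EW8 and 0.0916 ± 0.0906 CPM in TC71. The flagellin sensor TLR5 and the leptin receptor LEPR were 4.96-fold and 7.25-fold higher in TC71, and exons of LEPR overlap LEPROT on the same strand.

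G protein-coupled receptors held the most calls of any receptor list, 15 toward EW8 and 19 toward TC71 among 74 tested (20.3% and 25.7%, against 4.77% and 11.9% of all genes tested). LPAR3 and LPAR2, receptors of lysophosphatidic acid, were exchanged: LPAR3 measured 20.9 ± 0.621 CPM in EW8 and 4.57 ± 0.231 CPM in TC71, and LPAR2 1.13 ± 0.113 and 7.5 ± 0.56 CPM. Their log2 fold changes were 2.20 ± 0.097 and -2.70 ± 0.17 (adjusted p = 3.81e-20 and 1.44e-15). ADGRG6, an adhesion receptor of Schwann cells, was 3.19-fold higher in EW8, and the angiotensin receptor AGTR1 and the adrenergic receptor ADRA1B 6.51-fold and 2.78-fold. CELSR1, a cadherin-type receptor of planar cell polarity, was 3.41-fold higher in EW8. The endothelin receptor EDNRA was 2.73-fold higher in TC71, and the parathyroid hormone receptor PTH1R had 0.636 ± 0.223 CPM in TC71 and 1, 0 and 0 counts in EW8.

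Of 37 axon guidance genes, 4 were higher in EW8 and 9 higher in TC71 (10.8% and 24.3%, against 4.77% and 11.9% of all genes tested), a median of -0.5. SEMA5B, a semaphorin, measured 42.2, 43.5 and 43.3 CPM in TC71 and 3.9, 3.72 and 4.18 CPM in EW8, a log2 fold change of -3.43 ± 0.085 (adjusted p = 3.52e-27), and the semaphorin receptor PLXNB2 196 ± 10.6 against 68.9 ± 6.52 CPM. ROBO1, the receptor of Slit proteins, was at 194 ± 1.07 CPM in EW8 and 84.9 ± 4.08 CPM in TC71. Within the class 3 semaphorins, SEMA3F and SEMA3D were 2.93-fold and 2.27-fold higher in EW8 and SEMA3C 2.26-fold higher in TC71.

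Of 50 integrins, cadherins and other adhesion receptors, 9 were higher in each line, or 18% each, against 4.77% and 11.9% of all genes tested. PCDH19, a protocadherin of neurons, measured 4.42 ± 0.191 CPM in EW8 and 0.309 ± 0.0527 CPM in TC71, and the collagen-binding integrin subunit ITGA10 3.16 ± 0.413 and 0.244 ± 0.229 CPM. CDH12, a cadherin of the brain, was at 70.6 ± 3.89 CPM in EW8 and 30.5 ± 1.1 CPM in TC71. ITGA2 and ITGA4 were 2.49-fold and 2.26-fold higher in EW8, and CDH20, CDH4 and ITGB4 5.69-fold, 6.04-fold and 3.69-fold higher in TC71. The clustered protocadherins on chromosome 5, which give neurons their surface identity, differed by cluster. Of 9 PCDHA genes tested, 1 was higher in EW8 and 8 were not called (11.1% called, against 16.7% of all genes tested). In the other clusters, 6 of 8 PCDHB genes tested were higher in EW8 and 1 in TC71 (75% and 12.5%). Of 11 PCDHG genes, 7 were higher in EW8 and 1 in TC71 (63.6% and 9.09%). The shares were 4.77% and 11.9% of all genes tested, and 9.97% and 6.37% of the 722 tested on chromosome 5. PCDHB2 was the exception among the PCDHB genes, at 5.74 ± 0.668 CPM in TC71 and 0.724 ± 0.229 CPM in EW8. The PCDHB genes summed to 22.5 CPM in EW8 and 13.6 CPM in TC71, and the PCDHG genes to 85.9 and 56.2 CPM. PCDHG genes share their last exons, so single members are uncertain.

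Of the ETS factors and nuclear receptors, 6 were higher in EW8 and 3 higher in TC71 among 51 tested (11.8% and 5.88%, against 4.77% and 11.9% of all genes tested). ETS genes are the family of the fusion partner FLI1. ETV1, which replaces FLI1 in rare fusions, measured 23.3, 24.2 and 23.7 CPM in EW8 and 2.94, 3.09 and 3.39 CPM in TC71, a log2 fold change of 2.92 ± 0.098 (adjusted p = 1.77e-23), FEV, another such partner, 30.9 ± 2.59 against 9.77 ± 0.723 CPM, and ELK3 54.5 ± 2.09 against 20.5 ± 0.924 CPM. RARB, a retinoic acid receptor, was higher in TC71, at 8.49, 7.06 and 7.78 CPM against 0.35, 0.401 and 0.427 CPM in EW8 (-4.28 ± 0.20, adjusted p = 2.08e-19).

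Among 57 SOX, PAX, FOX, GATA and POU factors, 6 were higher in EW8 and 10 higher in TC71 (10.5% and 17.5%, against 4.77% and 11.9% of all genes tested). SOX11, a factor of neural progenitors, measured 4.17, 2.75 and 4.05 CPM in TC71 and had 3, 1 and 4 counts in the EW8 libraries. FOXL1, FOXI3 and FOXC2 were 6.75-fold, 6.84-fold and 3.14-fold higher in TC71, at 2.69 ± 0.333, 3.23 ± 0.0533 and 4.86 ± 0.27 CPM there, and POU4F2 was 4.08-fold higher in EW8.

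Among 91 further lineage factors, 17 were higher in EW8 and 20 higher in TC71 (18.7% and 22%, against 4.77% and 11.9% of all genes tested). LIN28B and HMGA2, which mark fetal and progenitor cells and are both targets of let-7 microRNAs, were both higher in EW8, LIN28B at 188, 175 and 185 CPM against 66.7, 67.1 and 66.3 CPM in TC71, and HMGA2 at 359.7, 345 and 349.6 against 157, 154 and 156 CPM. Their log2 fold changes were 1.45 ± 0.049 and 1.18 ± 0.04 (adjusted p = 2.32e-23 and 1.90e-23). SALL2, a zinc finger factor, was at 180.5 ± 7.27 CPM in EW8 and 60.7 ± 0.443 CPM in TC71. The aryl hydrocarbon receptor AHR measured 8.83 ± 0.394 against 0.84 ± 0.23 CPM, and the calcium-dependent factor NFATC2 2.15 ± 0.268 against 0.0676 ± 0.0868 CPM. TSHZ3, a teashirt-family factor, measured 1.4 ± 0.273 against 0.119 ± 0.0796 CPM. CEBPB and MYB were 2.45-fold and 2.52-fold higher in EW8. TC71 had more of CUX2, a cortical neuron factor (fold 2.7), of NPAS3 (5.76), of HES4, a target of Notch (5.01), of TCF7, a Wnt effector (2.79), of the hypoxia factor EPAS1 (3.73), of TP73 (5.37) and, at 1.73 ± 0.424 CPM, of MYCN (3.1).

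Cancer-testis antigens, genes of the germ line that tumors switch on, gave 2 calls toward EW8 and 4 toward TC71 among 14 tested (14.3% and 28.6%, against 4.77% and 11.9% of all genes tested). The 4 were MAGEA genes on the X chromosome. MAGEA3 measured 20.1, 18.6 and 20.02 CPM in TC71 and 1.66, 1.89 and 1.65 CPM in EW8, a log2 fold change of -3.51 ± 0.12 (adjusted p = 1.23e-23), and MAGEA1 4.81 ± 0.139 against 0.329 ± 0.174 CPM. MAGEA6 (2.12 ± 0.221 CPM in TC71 and 0, 0 and 5 counts in EW8) and MAGEA12 (7.61-fold) lay on the same side, but these genes are near copies of each other and the split of their reads is uncertain. PAGE5 was higher in EW8, at 2.77 ± 0.271 CPM against 0.132 ± 0.0612 CPM in TC71. Imprinted genes gave 4 calls toward EW8 and 2 toward TC71 among 28 tested (14.3% and 7.14%), the share toward TC71 being below that of all genes. The noncoding MEG3 measured 11.2, 10.6 and 12.6 CPM in TC71 and 0.438, 0.516 and 0.244 CPM in EW8, MKRN3 1.16 ± 0.529 CPM in TC71 and 0, 1 and 1 counts in EW8, and FAM50B and PHLDA2 were 6.78-fold and 4.26-fold higher in EW8.

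Of 26 genes around ribonucleotide reductase, SLFN11 and AP-1, none was higher in EW8 and 4 were higher in TC71, so that 15.4% were called against 16.7% of all genes tested. SLFN11, which makes cells sensitive to replication stress, measured 279, 271 and 286 CPM in EW8 and 208, 204 and 208 CPM in TC71, a fold of 1.35, and RRM2, the small subunit of the reductase, 567 ± 16.8 and 395 ± 9.54 CPM. JUN, the AP-1 subunit c-Jun, was low in both lines but 2.35-fold higher in TC71, at 10.6, 11 and 9.85 CPM against 4.64, 4.87 and 4.06 CPM in EW8 (-1.23 ± 0.12, adjusted p = 1.43e-08). SLFN5, a relative of SLFN11, was 2.14-fold higher in TC71. CDA, the cytidine deaminase that inactivates gemcitabine, measured 5.77, 3.92 and 6.58 CPM in TC71 and 0.175, 0.516 and 0.427 CPM in EW8, a log2 fold change of -3.88 ± 0.25 (adjusted p = 4.15e-14). FOS, the usual partner of c-Jun, was at 1.16 ± 0.141 and 0.9 ± 0.247 CPM. BATF2, the remaining call, had 0.894, 0.637 and 0.91 CPM in TC71 and 0, 0 and 1 counts in EW8.

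Of 20 genes tested of the CDKN2A locus, cell-cycle control and cohesin, 1 was called (5%, against 16.7% of all genes tested), the noncoding CDKN2B-AS1 at under 1 CPM in both lines, and that call ended without the TC71 library of replicate 2 (log2 fold change -0.98). MTAP, the neighbour of that locus, which salvages methionine, was 1.87-fold higher in TC71, at 15.8 ± 0.449 CPM in EW8 and 29.4 ± 1.3 CPM in TC71, short of the threshold of 2. The cohesin subunit STAG2 measured 289 ± 14.7 and 240.2 ± 7.64 CPM. MDM2, a ubiquitin ligase, and CDKN1A, an inhibitor of cyclin-dependent kinases, differed by 1.59-fold toward EW8 and 1.63-fold toward TC71, and were not called. RB1, the retinoblastoma gene, and MGMT, a repair gene of alkylated DNA, were not called either, at 90.5 ± 5.83 against 115 ± 2.61 and 16.1 ± 0.28 against 24.8 ± 2.21 CPM.

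Many zinc finger genes are of the KRAB type, which silences retroelements, and lie in arrays on chromosome 19. Of 462 genes with a ZNF symbol tested, 27 were higher in EW8 and 64 higher in TC71 (5.84% and 13.9%, against 4.77% and 11.9% of all genes tested). Of the 212 on chromosome 19 the counts were 19 and 38 (8.96% and 17.9%), beside 2.92% and 20.4% of the 1060 genes tested on that chromosome. Of these calls, 14 and 26 lay in 4 blocks, which were marked out after seeing the values, and 5 and 12 lay outside them. From ZNF253 to ZNF254 (chr19:19865882-24129968), 21 of 21 genes tested had a negative log2 fold change, 16 were called higher in TC71 and 5 were silent in EW8, with a median of -3.01. ZNF43 there measured 10.5, 10.8 and 10.4 CPM in TC71 and 2, 0 and 2 counts in EW8, and ZNF100 13.9, 14.1 and 14.1 CPM in TC71 and 0.482, 0.458 and 0.518 CPM in EW8 (-4.82 ± 0.16, adjusted p = 7.44e-24). ZNF85, ZNF91 and ZNF93 measured 3.05 ± 0.155, 2.59 ± 0.309 and 1.7 ± 0.302 CPM in TC71 and 0.0585 ± 0.0573, 0.161 ± 0.0593 and 0.0642 ± 0.0246 CPM in EW8. ZNF253 and ZNF254, at the ends of the block, were 8.04-fold and 3.5-fold higher in TC71. ZNF730 and ZNF681 had no count in EW8 and were at least 12.8-fold and 6.67-fold higher in TC71.

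Further along the chromosome the direction turned. From ZNF850 to ZNF540 (chr19:36714383-37614179), 8 of 14 genes tested were higher in EW8 and none in TC71, a median of 1.21, with ZNF345 at 1.93 ± 0.781 CPM in EW8 and 0.305 ± 0.0639 CPM in TC71. From ZNF577 to ZNF614 (chr19:51804816-52030240), 6 of 6 were higher in EW8, a median of 2.44, with ZNF350 at 2.63, 2.69 and 2.29 CPM in EW8 and 0.149, 0.049 and 0.248 CPM in TC71 and ZNF649 at 3.53 ± 0.196 and 0.366 ± 0.147 CPM. In the next block, from ZNF836 to ZNF813 (chr19:52153864-53496255), 10 of 21 were higher in TC71 and none in EW8, a median of -0.796, and ZNF83 had 2.07 ± 0.181 CPM in TC71 and 2, 1 and 2 counts in EW8. Genes in such arrays resemble each other, and how multimapped reads were counted is not given in the sources used here, so single members are uncertain. Outside these blocks, ZNF256 near the end of the chromosome measured 5.28 ± 0.168 CPM in EW8 and 0.243 ± 0.111 CPM in TC71.

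**Figure D4:**
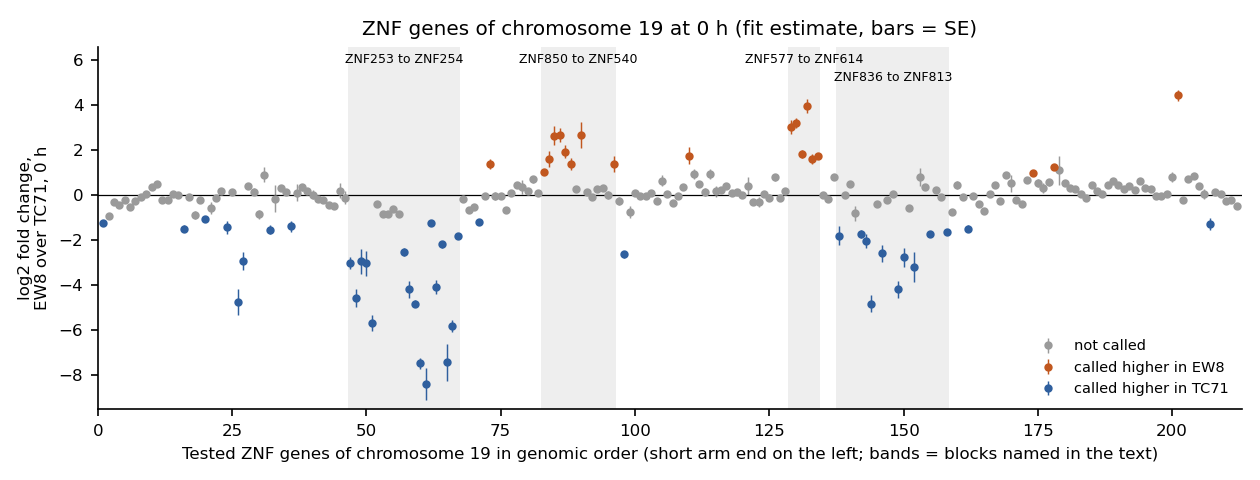
Log2 fold change of EW8 over TC71 at 0 h for the 212 ZNF genes tested on chromosome 19, in their order along the chromosome, with bars of 1 SE and the 4 blocks named in the text shaded. The block from ZNF253 to ZNF254 lies wholly below 0 (21 of 21) and that from ZNF577 to ZNF614 wholly above it (6 of 6).

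Whole chromosomes also differed in their median. Chromosome 12 had a median log2 fold change of 0.392, with 75.1% of its 869 tested genes above 0, chromosome 6 had 0.322 and chromosome 5 had 0.317. On the other side, chromosome 10 had a median of -0.359, with 17.5% of its 613 tested genes above 0, chromosome 13 had -0.282, chromosome 21 had -0.252, chromosome 19 had -0.205 and chromosome 4 had -0.194. On chromosome 10, 18.9% of genes tested were called higher in TC71 and 1.31% higher in EW8, and on chromosome 19 the shares were 20.4% and 2.92%. At 48 h the medians were 0.387, 0.321 and 0.318 for chromosomes 12, 6 and 5 and -0.337, -0.285, -0.358, -0.224 and -0.191 for chromosomes 10, 13, 21, 19 and 4. The copy number of these chromosomes was not measured here.

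**Figure D5:**
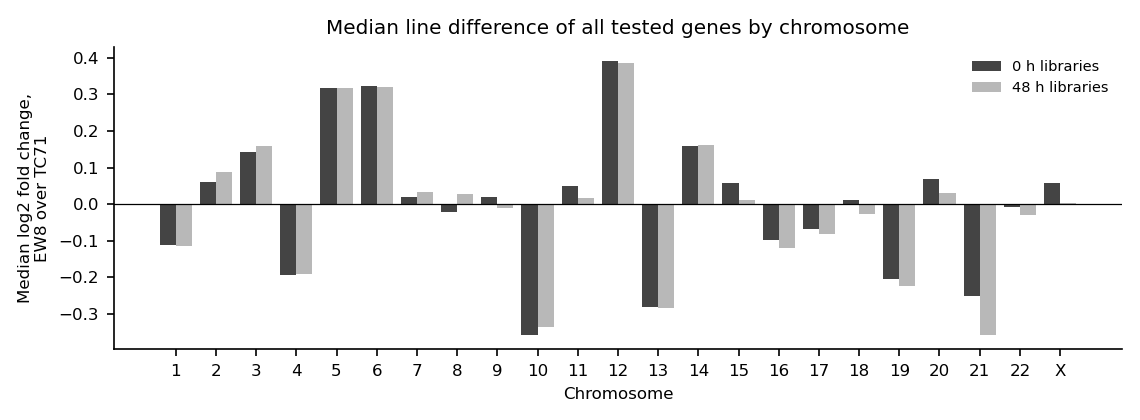
Median log2 fold change of EW8 over TC71 for the genes tested on each chromosome, with a dark bar for 0 h and a light bar for 48 h. Chromosomes 12, 6 and 5 lie highest and chromosomes 10 and 13 are among the lowest at both times, and chromosome 21 moved from -0.252 to -0.358.

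The comparison was read again at 48 h, after doxycycline had been removed from both lines. Counts of the annotated RRM1 gene were then higher than at 0 h, at 70.2 ± 5.54 CPM in EW8 and 25.4 ± 1.19 CPM in TC71, and whether they include transcripts of the edited gene cannot be told from counts per gene. Of all genes tested, 10.5% were then called higher in EW8 and 11% higher in TC71. Of the 787 genes higher in EW8 at 0 h, 631 (80.18%) were called the same way at 48 h, 156 were not called and none was called the opposite way. Of the 1963 higher in TC71, 1242 (63.27%) were called the same way, 700 were not called and 21 were called the opposite way. The median log2 fold change of these lists moved from 1.6 to 1.87 for the genes higher in EW8 and from -1.73 to -1.32 for those higher in TC71. As the 0 h values chose these genes, a shift of their median toward 0 at 48 h does not by itself show a change.

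Of the HOX genes called at 0 h, 10 were called the same way at 48 h. HOXC11 had a log2 fold change of 2.01 ± 0.11 at 48 h, HOXB6 -1.33 ± 0.17, TBX3 3.13 ± 0.091, EPHA7 3.46 ± 0.11, INSR -2.36 ± 0.074 and JAG2 -3.96 ± 0.11, and each was called in the same direction as at 0 h. The exception among the HOX genes was HOXB9, at 20.4 ± 1.63 CPM in EW8 and 24.4 ± 0.909 CPM in TC71. CDK6 stayed near 0 in TC71 (0.0309 ± 0.0536 CPM) while it reached 21.8 ± 0.315 CPM in EW8, and PDK2 stayed near 0 in EW8 (0.0177 ± 0.0307 CPM) at 21.6 ± 1.38 CPM in TC71. Of the 21 genes that turned, the kinase gene DYRK1B, named after its values were seen, went from 6.51 ± 0.798 to 65 ± 3.25 CPM in EW8 and from 18.3 ± 1.55 to 27.3 ± 1.8 CPM in TC71. The difference in its log2 fold change between the times was 2.74 ± 0.11 (adjusted p = 2.51e-19). CLBA1 and DDX60, also of these 21, were at 5.74 ± 0.246 and 1.23 ± 0.0954 CPM in EW8 and 13.2 ± 0.296 and 2.49 ± 0.395 CPM in TC71 at 0 h, and at 25.8 ± 2.32 and 6.36 ± 1.66 against 11.4 ± 1.22 and 2.42 ± 0.178 CPM at 48 h, though the 0 h call of DDX60 was lost without replicate 3 of EW8 (-0.95) or of TC71 (-0.91). The sign of JUN turned as well, from 4.52 ± 0.419 to 417 ± 7.98 CPM in EW8 and from 10.5 ± 0.58 to 227 ± 26.6 CPM in TC71, a difference of 2.11 ± 0.14 (adjusted p = 4.50e-11), though its difference between the lines at 48 h did not reach 2-fold. The chemokine CXCL8 had 1, 2 and 2 counts in EW8 at 0 h, 0.598 ± 0.185 CPM in TC71, and was higher in EW8 at 48 h, at 15.6 ± 1.1 CPM against 4.94 ± 0.521 CPM in TC71.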

How the data were processed

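Poly-A RNA of both engineered lines, at 0 h and 48 h, was sequenced as paired 100-base reads. The submitters' processing notes name FastQC, STAR and hg38, without versions. The deposited table holds raw counts per gene that the authors made. The counting tool, strand setting and annotation are not given in the sources used here. The lowest row sum in the table was 21 counts. Of 20771 genes in the table, 19943 matched GENCODE release 44 by Ensembl gene ID. Library totals at 0 h were 18684017 to 35698991.

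Genes passing filterByExpr (minimum count 10, total 15) were fitted over all 12 libraries with edgeR 4.0.16 in R 4.3.3 (TMM, robust quasi-likelihood, no covariates), with the contrast EW8 minus TC71 at 0 h. Benjamini-Hochberg adjustment ran over all 16515 genes. The 48 h contrast and the interaction came from the same fit. Alternatives were RLE, upper-quartile and no scaling factors, DESeq2 1.42.0, other filters and thresholds, a replicate block, leaving out each library, and, chosen after seeing the data, a GC offset and a minimum of 1 CPM. The fit was tested on simulated data. RNA of neither line was compared with parental cells.

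The gene lists and members were chosen with earlier results of these data known. Genes were named if they were called or silent members of those lists. Also named were the 10 silent genes of each line with the highest level in the other. The 10 largest changes in each direction were named too, given libraries that did not overlap and at least 20 counts on average in the lower line. Others, such as CDK4, CCND2, NLRX1, APOBEC3G, CXCL8, CLBA1 and the zinc finger genes, were chosen after their values were seen, and uncalled list members are given for context. XIST, Y-linked and chromosome 8 genes entered every count but are not named, and some other genes are not reported here.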

Additional observations from a re-analysis of the deposited data

Results flagged for a closer look

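Some of the differences between the lines at 0 h were not the same at 48 h, by the interaction term of the same edgeR fit (adjusted p below 0.05 and a change of more than 1 on the log2 scale). Among genes called at 0 h this held for 88 of the 787 higher in EW8 and 479 of the 1963 higher in TC71, against 8.26% of all genes tested. The values below are the log2 fold change of EW8 over TC71 at 48 h minus that at 0 h, so a positive value is a shift toward EW8. The 0 h values enter both this difference and the choice of the genes.

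The 3 largest shifts among the named genes came where 1 line had almost no counts at 0 h, and there the fitted value depends on the prior count and is no bound. RET shifted by 4.58, from 5.67 ± 0.354 to 11.4 ± 1.27 CPM in EW8 and from 0.055 ± 0.0173 to 0 ± 0 CPM in TC71. ZNF750 shifted by 4.88 and CXCL8 by 4.67, with ZNF750 in EW8 at 0 ± 0 CPM at 0 h and 0.169 ± 0.024 CPM at 48 h. The same holds for AATK (2.44), APOBEC3G (2.14), CPXM1 (1.87) and TBXA2R (1.65). The shift was 3.30 in MEG3, 2.62 in SOX11 and 1.26 in ZNF91, each low in EW8 at 0 h.

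Among transcription factors and position genes, JUN shifted by 2.11, HOXB9 by 1.26, HOXB2 by 1.11, SNAI1 by 1.03, PBX4 by 1.03 and ZNF253 by 1.57, while ZNF254 shifted by -1.05 away from EW8. Among receptors, the shifts were 1.34 in EPHA2, 1.19 in EPHA5, 1.35 in NOTCH4, 1.37 in IL2RG, 1.37 in TACR3 and -2.73 in LEPR, the last from 0.531 ± 0.102 to 0.0522 ± 0.0532 CPM in EW8 and from 4.02 ± 0.443 to 2.67 ± 0.258 CPM in TC71. Among genes of secreted, matrix, surface and cytoskeletal proteins and growth factor relatives they were 1.04 in APOE, 1.30 in COL9A3, 1.48 in FAP, 1.03 in ACTA2, 1.58 in PCDH19, 1.17 in PCSK6, 1.03 in PAPPA, 1.43 in KRT8 and -1.38 in FGF12. The remaining named genes were RRM1 (2.23), SLFN5 (1.38), CDKN1A (1.35), DYRK1B (2.74), CLBA1 (2.38), DDX60 (2.42), FAM50B (1.09), MAOA (1.07), TMC8 (2.21) and CYP4F29P (1.32).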

How the results depend on the processing

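The counts of called genes, 787 higher in EW8 and 1963 higher in TC71, stayed within 1.5 times these values under 7 alternatives, at 793 and 1952 with RLE size factors, 692 and 2150 with upper-quartile scaling, 642 and 2304 with library totals alone, 844 and 2110 with DESeq2, 954 and 2406 without a filter on low counts, 646 and 1710 with only the 0 h libraries and 884 and 1756 with the GC offset. They were 736 and 1835 at an adjusted p below 0.01. With the fold threshold inside the test they fell to 438 and 1140, with a fold above 4 to 267 and 774, and with no fold threshold they were 5415 and 5439. Requiring 1 CPM in the higher line, chosen after seeing the data, left 534 higher in EW8 and 1286 higher in TC71. Leaving out 1 library at a time gave 793 to 830 and 1939 to 2045. The count of genes silent in EW8 was 13 at 0 counts, 159 at 10 counts or fewer, 11 at 5 CPM or more and 126 at 0.5 CPM or more. The count silent in TC71 was 3, 54, 5 and 28. Leaving out 1 library gave 65 to 90 and 15 to 20, the 90 without EW8 replicate 3, the deepest library. Of calls at 0 h, those called the same way at 48 h were 3810 and 3894 with no fold threshold and 615 to 638 and 1245 to 1288 without 1 library.

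Of 239 named genes, 211 were called. 206 of these kept their call under all 16 alternatives other than thresholds. 5 lost it under at least 1 (CDKN2B-AS1, DDX60, GLI1, MET and NOTCH1), and HOXB2 and MTAP gained one. The direction reversed for CD99 with totals alone (-0.049), HOXD10 with upper-quartile scaling (-0.031) and totals alone (-0.085), and NR0B1 with the GC offset (0.18). The cause was not tested.

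With the replicate number as a block, 780 and 1959 genes were called. The deviations of same-numbered libraries correlated by 0.151, 0.42 and 0.0834. Deviations from a mean of 3 libraries are tied to each other, so these values cannot decide whether the numbers pair the samples. EW8 replicates 1 and 3 correlated best with TC71 replicates 3 and 1. Genes below about 0.13 CPM, or 3 counts, could not be told from absent at this depth. The ratios and counting intervals given against such counts, as for CALD1 and LINC00689, treat those few counts as real.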
